A study of Bos taurus with 3 samples.

Results

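The miR-17/92 cluster and its relatives were followed in the small RNA of bovine milk-derived extracellular vesicles (BM-EVs). The members were a list of 10 named mature miRNAs. They comprised 6 of the miR-17/92 cluster (bta-miR-17-5p, bta-miR-18a, bta-miR-19a, bta-miR-20a, bta-miR-19b and bta-miR-92a), 3 of the miR-106b/25 cluster (bta-miR-106b, bta-miR-93 and bta-miR-25), and bta-miR-92b, which is encoded on its own. The prefix bta, for Bos taurus, is left out in most places below. Of these 10 names, 8 were listed among the 745 miRNAs found in at least 1 library. BM-EVs were taken from skimmed milk of Bos taurus, labelled as normal and untreated, by acidification followed by salting-out with ammonium sulfate. There were 3 libraries of 1 condition and no comparison group, so levels, ratios and their spread were described. The study took milk of several expiration dates as its replicates, but the sources used here do not tie a library to a milk. The p-values below therefore concern these libraries only. They show whether a direction repeated in all 3 libraries, and not how far the libraries spread.

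MiRNAs are short RNAs that guide Argonaute proteins to messenger RNAs, mainly through the seed, the bases from position 2 to 8 of the miRNA. Several hairpins can lie on 1 long primary transcript and be cut from it, so that members of a cluster start from the same precursor. The miR-17/92 cluster is known in human and mouse as a promoter of cell proliferation and survival that MYC activates, and it holds 4 seed families. The miR-17 family (miR-17-5p, miR-20a, miR-106b and miR-93) is known to repress the cell cycle inhibitor CDKN1A. The miR-92 family (miR-92a, miR-92b and miR-25) is known to repress the pro-apoptotic BCL2L11, miR-19a and miR-19b form the miR-19 family, and miR-18a stands for a family with a seed of its own. In the RefSeq gene table of the assembly ARS-UCD2.0, MIR17, MIR18A, MIR19A, MIR20A, MIR19B and MIR92A-1 followed each other on chromosome 12. MIR106B, MIR93 and MIR25 lay side by side on chromosome 25, inside the span of MCM7, a subunit of the replicative helicase, and MIR92B lay between THBS3 and MUC1 on chromosome 3. A paralog cluster on chromosome X held MIR363, MIR92A-2, MIR19B-2, MIR20B, MIR18B and MIR106A. Mature miR-92a and miR-19b can thus come from chromosome 12 or X, and their UMIs cannot be told apart by locus. No sequence is printed, as none was at hand for these miRNAs, and the seed families are those of general knowledge.

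The members were counted as unique molecular indices (UMIs), which count the PCR copies of a molecule once. The miRNA UMIs summed to 77225, 373239 and 102058 in libraries 1, 2 and 3, with 507, 622 and 628 miRNAs listed. The lowest listed count was 11 UMIs in each library. An unlisted miRNA had therefore at most 10 UMIs, or a share of up to 0.0129%, 0.00268% and 0.00980% of the miRNA UMIs, and is not known to be absent. The intervals below are Wilson 95% intervals, which cover counting error only. Library 2 stood apart from the others in the balance between abundant and scarce miRNAs, and the results that rest on it are given per library.

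Together, the members held 1.2% ± 0.155 of the miRNA UMIs (SD, n = 3 libraries), and nearly all of this was miR-92a, miR-25 and miR-93. Their UMIs numbered 794, 4963 and 1268 in libraries 1, 2 and 3, or 1.03% (0.959 to 1.10%), 1.33% (1.29 to 1.37%) and 1.24% (1.18 to 1.31%). Library 1 was the lowest, and its interval did not overlap those of libraries 2 and 3. How many of all miRNAs set library 1 apart in this way was not counted. Of the 10 members, 7 were listed in every library, miR-18a was listed in library 3 only, and miR-19a and miR-106b were listed in none. For comparison, 435 of the 745 miRNAs listed in any library were listed in every one (58.4%), and 7 of the 8 listed members were.

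**Figure D1:**
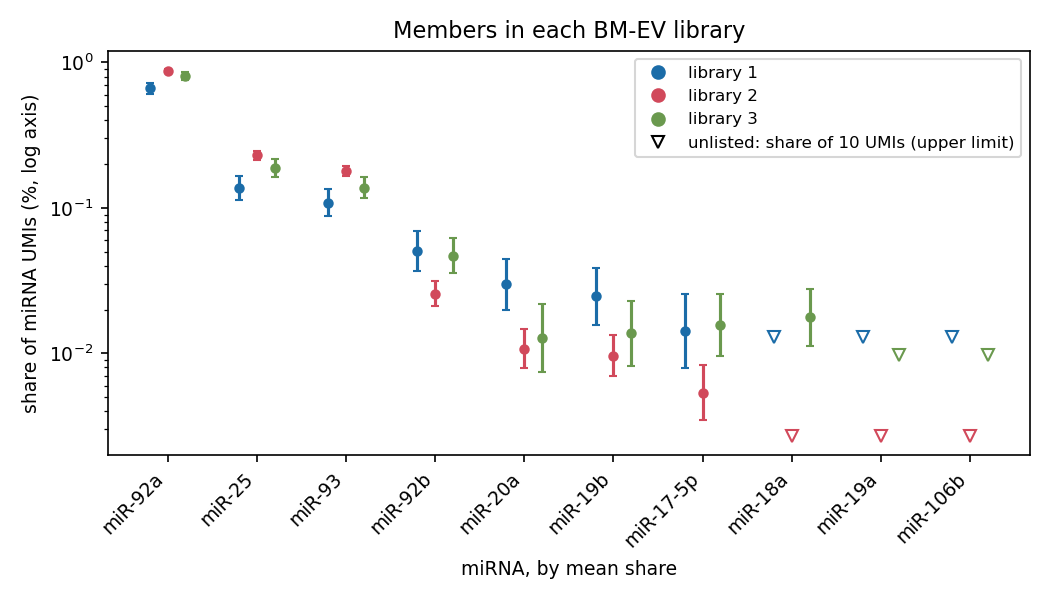
Share of the miRNA UMIs (%, log axis) of each member in libraries 1, 2 and 3, with Wilson 95% intervals as bars and open triangles at the share of 10 UMIs where a member was unlisted. MiR-92a lies between 0.663% and 0.869%, above all other members in every library.

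MiR-92a (bta-miR-92a), whose known targets in human endothelial cells include the integrin subunit ITGA5, was by far the most abundant member. It had 512, 3245 and 826 UMIs in libraries 1, 2 and 3, or 0.663% (0.608 to 0.723%), 0.869% (0.840 to 0.900%) and 0.809% (0.756 to 0.866%). Its mean share was 0.781% ± 0.106 (SD, n = 3), and it ranked 18, 15 and 14 among all listed miRNAs. The share of library 1 was below that of the others, while the intervals of libraries 2 and 3 overlapped.

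MiR-25 and miR-93 (bta-miR-25 and bta-miR-93), which lie next to each other on chromosome 25, followed at close levels. MiR-25 had 106, 856 and 193 UMIs, with shares of 0.137%, 0.229% and 0.189% and a mean of 0.185% ± 0.0462 (SD, n = 3). MiR-93 had 84, 670 and 140 UMIs, with shares of 0.109%, 0.180% and 0.137% and a mean of 0.142% ± 0.0356. Both were highest in library 2 and lowest in library 1, and they ranked between 39 and 73 in the 3 libraries.

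MiR-92b (bta-miR-92b), which shares the seed of miR-92a but has a locus of its own, was a scarcer miRNA. It had 39, 96 and 48 UMIs, or 0.0505%, 0.0257% and 0.0470% of the miRNA UMIs (mean 0.0411% ± 0.0134, SD, n = 3). Its order over the libraries differed from that of miR-92a, as its share was lowest in library 2, a direction that turned with the scaling.

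The remaining members of the miR-17/92 cluster were close to the listing minimum. MiR-20a, of the same family as miR-17-5p, had 23, 40 and 13 UMIs, or 0.0298%, 0.0107% and 0.0127%. MiR-19b, known in mouse lymphoma as a main oncogenic part of the cluster together with miR-19a, had 19, 36 and 14 UMIs, or 0.0246%, 0.00965% and 0.0137%. MiR-17-5p, which gives the cluster its name, had 11, 20 and 16 UMIs, or 0.0142%, 0.00536% and 0.0157%. At 11 UMIs in library 1, miR-17-5p was level with the lowest listed miRNAs, and its interval there reached from 0.00795% to 0.0255%. MiR-18a had 18 UMIs in library 3, or 0.0176% (0.0112 to 0.0279%), which lies above the limits of 0.0129% and 0.00268% that its absence from the lists allows in libraries 1 and 2. In library 1 that limit was inside the interval of library 3, so a difference between these libraries was not detectable at this depth. The limit in library 2 was below the interval. By share, however, the median miRNA listed in every library was in library 2 at 0.457 times its level in library 3.

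In the order of mean shares, the upper places repeated in every library and the lower ones did not. MiR-92a was higher than miR-25, miR-25 than miR-93, miR-93 than miR-92b, and miR-92b than miR-20a in 3 of 3 libraries each (exact two-sided sign permutation test, p = 0.25, the smallest p that 3 libraries allow, and 0.375 after Benjamini-Hochberg adjustment over 6 pairs of neighbours). No pair could pass a threshold of 0.05 in this design. The pairs were also chosen by sorting these same shares, so the p-values give the order no independent support. MiR-20a was higher than miR-19b in 2 of 3 libraries, and miR-19b was higher than miR-17-5p in 2 of 3 (exact sign permutation test, p = 0.5 for both, adjusted p = 0.5). In library 3 the order of these was miR-17-5p, miR-19b and miR-20a, with 16, 14 and 13 UMIs. The order of these 3 neighbours thus did not repeat in all libraries, and with 3 libraries the test cannot show that they are level.

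Within the miR-17/92 cluster, miR-92a outnumbered each single neighbour on chromosome 12 by more than 20-fold in each library. Ratios between miRNAs compare different sequences. UMIs remove PCR copies only, and whether the library preparation captured each sequence equally was not measured. It held 90.6% (87.9 to 92.8%), 97.1% (96.5 to 97.6%) and 93.1% (91.3 to 94.6%) of the cluster's UMIs in libraries 1, 2 and 3. All other members of the cluster together had 53, 96 and 61 UMIs. These shares include any miR-92a that came from chromosome X.

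The ratio of miR-92a to each neighbour was not steady between libraries. From library 1 to library 2, such a shift was shared by abundant and scarce miRNAs at large. MiRNAs with at least 300 UMIs in library 3, as miR-92a had, had a median ratio of library 2 to library 1 of 5.30. Those with 11 to under 30 UMIs, as these neighbours had, had a median of 1.47. MiR-92a had 22.3 times as many UMIs as miR-20a in library 1 (interval 14.7 to 33.7), 81.1 times in library 2 (59.5 to 111) and 63.5 times in library 3 (37.0 to 109). The interval of library 1 lay below those of the other libraries, which overlapped. The ratio to miR-19b was 26.9, 90.1 and 59.0, and that to miR-17-5p was 46.5, 162 and 51.6. On the log2 scale the means were 5.60 ± 0.991, 5.71 ± 0.884 and 6.19 ± 0.9998 (SD, n = 3) for miR-20a, miR-19b and miR-17-5p. Each was above 0 in 3 of 3 libraries (exact two-sided sign permutation test, p = 0.25, adjusted p = 0.306 over 11 ratios). Against unlisted miR-19a, miR-92a was at least 51.2-fold, 324.5-fold and 82.6-fold higher, taking miR-19a at 10 UMIs.

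The scarce members of the cluster lay close to each other. MiR-20a had 1.21, 1.11 and 0.929 times the UMIs of miR-19b in libraries 1, 2 and 3, and every one of these intervals included 1. It had 2.09, 2.0 and 0.813 times the UMIs of miR-17-5p, with intervals above 1 in libraries 1 and 2 (1.03 to 4.23 and 1.18 to 3.40) but not in library 3 (0.397 to 1.66). MiR-17-5p, miR-20a and miR-106a are near-identical in sequence, so their UMIs may have been split between them by the mapping, and their separate counts are uncertain. The same holds for miR-19a and miR-19b.

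In the miR-106b/25 cluster, 2 of the 3 members were nearly even and the third was unlisted. MiR-25 had 1.26 (0.949 to 1.68), 1.28 (1.15 to 1.41) and 1.38 (1.11 to 1.71) times the UMIs of miR-93 in libraries 1, 2 and 3. The log2 ratio was 0.38 ± 0.0691 (SD, n = 3; exact two-sided sign permutation test, p = 0.25, adjusted p = 0.306), and the 3 intervals overlapped. MiR-106b, a repressor of CDKN1A in human cells like miR-93, had at most 10 UMIs in each library. MiR-25 was therefore at least 10.6-fold, 85.6-fold and 19.3-fold higher than miR-106b, and miR-93 at least 8.40-fold, 67.0-fold and 14.0-fold higher. All of the 3 hairpins lie inside the span of MCM7, so this spread was found among miRNAs of neighbouring hairpins.

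**Figure D2:**
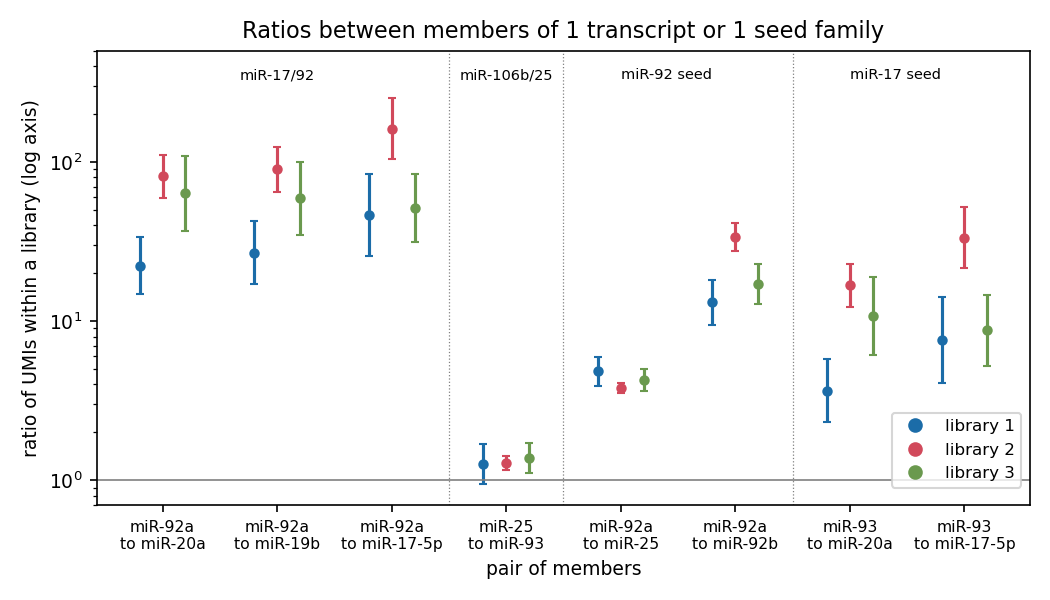
Ratio of the UMIs of 2 members within a library (log axis) for 8 pairs, grouped by shared cluster or shared seed, with Wilson 95% intervals as bars and a line at 1. The ratio of miR-25 to miR-93 stays between 1.26 and 1.38, while that of miR-92a to miR-20a runs from 22.3 to 81.1. MiR-25 and miR-93 are of like abundance, whereas miR-92a is abundant and miR-20a scarce.

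Set beside other clusters that hold several miRNAs, the spans were as follows, given as values without a test. In the miR-17/92 cluster, the highest member had 46.5, 162 and 63.5 times the UMIs of the lowest listed one in libraries 1, 2 and 3. In the miR-23a/27a/24 cluster this ratio was 1.09, 2.03 and 1.48, and in the miR-23b/27b/24 cluster it was 2.77, 2.52 and 1.43, where miR-24-3p can come from either cluster. It was 6.08, 8.50 and 11.1 in the cluster of miR-200b, miR-200a and miR-429. In the cluster of miR-183, miR-96 and miR-182 it was 4.93 in library 1, where miR-182 had 133 UMIs and miR-96 had 27. MiR-96 was unlisted in libraries 2 and 3, where miR-182 was at least 100.4-fold and 22.3-fold higher. With unlisted members likewise at 10 UMIs, the span of the miR-17/92 cluster was at least 51.2, 324.5 and 82.6 in libraries 1, 2 and 3. This cluster has 6 members against 3 in each of these 4 others, and a span can only widen as members are added. Its highest member, miR-92a, may include UMIs from chromosome X.

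Ordered by seed, the members were mostly of the miR-92 family, and its part was nearly the same in each library. The miR-92 family held 82.7% (80.0 to 85.2%), 84.6% (83.5 to 85.5%) and 84.1% (82.0 to 86.1%) of the members' UMIs, a mean of 83.8% ± 0.953 (SD, n = 3). The miR-17 family held 14.9%, 14.7% and 13.3%, a mean of 14.3% ± 0.845. For both families the intervals of all libraries overlapped. The miR-19 family held 2.39%, 0.725% and 1.10%, all of it miR-19b.

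**Figure D3:**
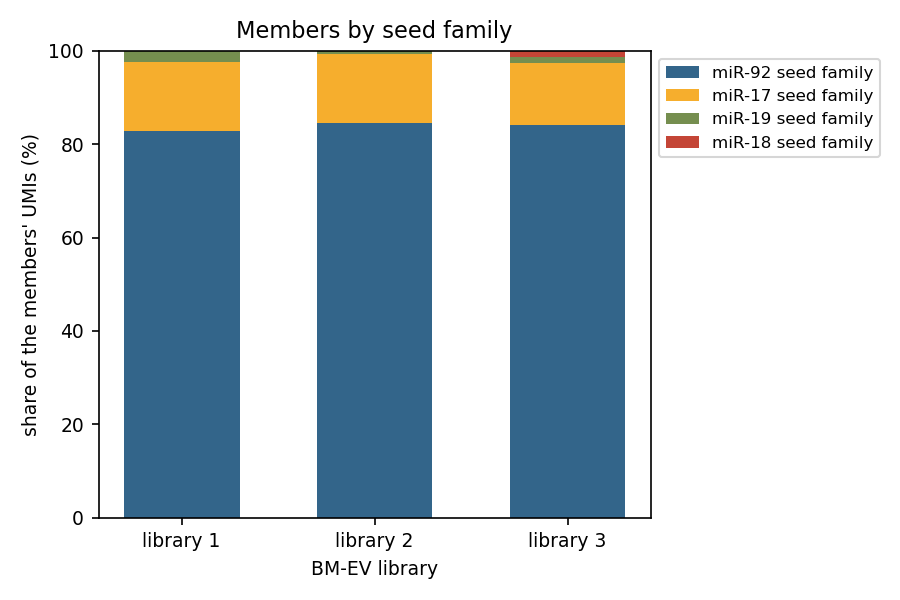
Share of the members' UMIs (%) that belongs to each seed family, stacked for libraries 1, 2 and 3. The miR-92 family makes up 82.7%, 84.6% and 84.1%, and the miR-18 family is seen in library 3 only, where miR-18a was listed.

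The split of the miR-92 family between its own members changed less for miR-92a than for miR-25 and miR-92b. With miR-32, a family member from chromosome 8 that had 12 UMIs in library 2 and was unlisted elsewhere, the family had 657, 4209 and 1067 UMIs. MiR-92a made up 77.9%, 77.1% and 77.4% of them. MiR-25 made up 16.1%, 20.3% and 18.1%, and miR-92b 5.94%, 2.28% and 4.50%. From library 1 to library 2 the part of miR-25 was thus higher and that of miR-92b lower, which no scaling alters within a library. MiRNAs at large shifted in this direction by abundance. The median ratio of library 2 to library 1 was 3.45 for miRNAs with 100 to under 300 UMIs in library 3, as miR-25 had. It was 1.94 for those with 30 to under 100, as miR-92b had. For miR-92b the interval of library 2 (1.87 to 2.78%) lay below those of libraries 1 (4.37 to 8.01%) and 3 (3.41 to 5.91%). By share of all miRNA UMIs, 188 of 327 miRNAs with a mean under 100 UMIs were lower in library 2 (57.5%). How often this happens within other families was not counted. MiR-92a had 4.83, 3.79 and 4.28 times the UMIs of miR-25, and 13.1, 33.8 and 17.2 times those of miR-92b. MiR-363 and miR-367, of the same family, were unlisted in every library.

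In the miR-17 family the miRNA of chromosome 25 led those of chromosomes 12 and X. MiR-93 made up 65.1% (56.6 to 72.8%), 88.2% (85.7 to 90.3%) and 76.9% (70.3 to 82.4%) of the family's UMIs, with miR-106a and miR-20b included. The interval of library 2 lay above those of libraries 1 and 3. How often this happens within other families was not counted. MiRNAs with 100 to under 300 UMIs in library 3, as miR-93 had, had a median ratio of library 2 to library 1 of 3.45. Those with 11 to under 30 UMIs, as miR-20a, miR-17-5p and miR-106a had, had a median of 1.47. MiR-93 had 3.65, 16.8 and 10.8 times the UMIs of miR-20a, and the geometric mean of 8.70 became 13.4 without library 1. It had 7.64, 33.5 and 8.75 times the UMIs of miR-17-5p, and the geometric mean of 13.1 became 8.17 without library 2. The X-linked miR-106a was at the level of miR-17-5p, with 11, 17 and 13 UMIs. MiR-20b had 13 UMIs in library 2 and was unlisted elsewhere. MiR-18b and miR-17-3p, the other arm of the miR-17 hairpin, were unlisted in every library, and no other opposite arm of a member hairpin was listed. Whether the reference held those other arms is not known, so this says nothing of arm use.

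The libraries differed in the share of single members, and which library stood apart depended on the member. For miR-92a it was library 1 by share, as given above. Calls over all miRNAs were made for library 2 only, so how many miRNAs set library 1 apart was not counted. A miRNA was called higher or lower in library 2 where its interval lay wholly above or below those of both other libraries. Of the 7 members listed in every library, 1 was higher (miR-93) and 1 was lower (miR-92b), and 5 overlapped with at least 1 of the others. Over all 435 miRNAs listed in every library, 27 were higher (6.21%) and 214 were lower (49.2%). Among the 108 miRNAs with a mean of at least 100 UMIs, as miR-93 had, 27 were higher (25%) and 26 were lower (24.1%). Among the 327 miRNAs with a lower mean, as miR-92b had, 0 were higher (0%) and 188 were lower (57.5%). With totals scaled by the trimmed mean of M-values (TMM), which sets the bulk of the miRNAs level and was tried after seeing the data, miR-92a, miR-25 and miR-93 were higher and no member was lower. With this scaling, 99 of the 435 miRNAs were higher (22.8%) and 23 were lower (5.29%). At a confidence level of 99%, another setting chosen after seeing the data, no member was called by share, against 19 higher and 133 lower of the 435.

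The direction for miR-92b, and that for miR-20a and miR-19b against library 3, depended on the scaling. MiR-92b in library 2 was at 0.509 times its level in library 1 by share and at 1.23 times with TMM. Against library 3, miR-20a was at 0.841 times by share and 1.97 times with TMM, and miR-19b at 0.703 and 1.64 times. Relative to the summed miRNA UMIs, the median miRNA had 0.382 times the level in library 2 that it had in library 1 (log2 -1.39), and with TMM factors this was 0.923 (log2 -0.11). The ratios below are therefore of raw UMIs and are read against the median of all 435 miRNAs, which was 1.85 for library 2 to library 1. From library 1 to library 2 the UMIs of miR-25 were multiplied by 8.08 (counting interval 6.60 to 9.88), those of miR-93 by 7.98 (6.36 to 10.01) and those of miR-92a by 6.34 (5.77 to 6.96). These were 4.37, 4.32 and 3.43 times the median. For miR-92b the ratio was 2.46 (1.70 to 3.57), or 1.33 times the median. MiR-19b, miR-17-5p and miR-20a were at the median, with ratios of 1.89, 1.82 and 1.74, or 1.03, 0.985 and 0.942 times the median. Against the median of the 108 miRNAs with a mean of at least 100 UMIs, which was 5.13 and was tried after seeing the data, miR-25, miR-93 and miR-92a were at 1.57, 1.56 and 1.24 times. MiR-92b was then below the median, at 0.480 times, and miR-19b, miR-17-5p and miR-20a were at 0.369, 0.354 and 0.339 times.

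Over all miRNAs the ratio was higher in the groups of higher abundance, whereas among the members miR-92a, the most abundant, had a lower ratio than miR-25 and miR-93. Grouped by their UMIs in library 3, miRNAs with 11 to under 30 UMIs had a median ratio of 1.47 between libraries 2 and 1 (181 miRNAs), and those with 30 to under 100 had 1.94 (165 miRNAs). The ratio was 3.45 for miRNAs with 100 to under 300 UMIs (54 miRNAs) and 5.30 from 300 UMIs (35 miRNAs). MiR-92a, in the highest group, was the 16th of 35 from the top, and the scarce members and miR-92b were between 61.2% and 70.7% of the way up their groups. MiR-25 and miR-93 were the 6th and the 7th of 54. Since every miRNA here has at least 11 UMIs in each library, the ratios of the lowest group are bounded by the listing minimum.

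**Figure D4:**
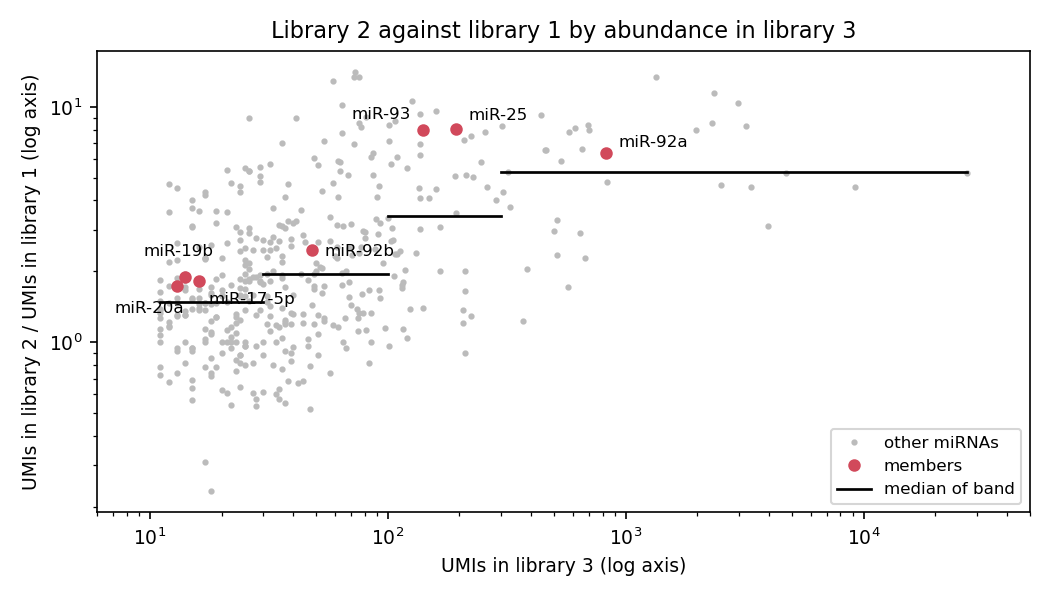
Ratio of the UMIs in library 2 to those in library 1 (log axis) against the UMIs in library 3 (log axis) for the 435 miRNAs listed in every library, with members in red and the median of each group of abundance as a black line. MiR-25 and miR-93 lie at about 8, above the median of 3.45 of their group, while miR-20a, miR-19b and miR-17-5p lie at 1.74 to 1.89 near the median of theirs.

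The miRNAs whose levels ran most alike with miR-92a, miR-25 and miR-93 were found by the SD of the log2 ratio over the 3 libraries, among 108 miRNAs listed in every library with a mean of at least 100 UMIs. For miR-25 they were miR-103 (SD 0.0121), miR-107 (0.0355) and miR-30a-5p (0.0441), and miR-93 was the 5th of 107 (0.0691). MiR-103 and miR-107 are relatives that lie in introns of PANK genes, which encode an enzyme of coenzyme A synthesis. Their UMIs were close, with 332 and 334 in library 1, 2688 and 2604 in library 2, and 614 and 580 in library 3. How the mapping split similar sequences is not known, so they may not be separate signals. MiR-103 had 3.13, 3.14 and 3.18 times the UMIs of miR-25 in libraries 1, 2 and 3. For miR-93 they were the epithelial miR-200b (0.0183) and miR-200c (0.0394) and miR-107 (0.0467), and miR-25 was again the 5th. For miR-92a they were miR-342 (0.0350), miR-200a (0.0652) and miR-423-5p (0.0660), while miR-25 was the 20th (0.175) and miR-93 the 23rd (0.179). The median over the 107 others was 0.344 for miR-92a, 0.387 for miR-25 and 0.381 for miR-93. These are descriptions over 3 libraries, and all miRNAs of a library share its depth. The counting error of the log2 ratio of miR-25 to miR-93 in a library was 0.159 (root mean square over the 3), so the order among the first places cannot be resolved.

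MiR-92a, miR-25 and miR-93 are also abundant in human blood cells, and markers of other cell types were read for this reason. Of the erythroid markers, miR-451 and miR-144 were unlisted in every library, and miR-486 was listed in each, with 25, 37 and 31 UMIs. MiR-92a had 512, 3245 and 826 UMIs, against at most 10 for miR-451. No erythroid reference for this ratio was at hand. The leukocyte list had 4, 5 and 5 of 5 markers listed and held 0.236%, 0.180% and 0.321% of the miRNA UMIs, with miR-142-3p unlisted in library 1. By share it was lowest in library 2, where miR-25 and miR-93 were highest, but with TMM totals, tried after seeing the data, it was highest there, at 0.174%, 0.320% and 0.245%. Its most abundant marker, miR-223, held 0.135%, 0.126% and 0.132%, with intervals that overlapped. The 8 epithelial markers, among them miR-148a and the miR-200 family, were listed in every library and held 9.62%, 12.1% and 9.73%. Their sum was the highest in library 2 by share and with TMM totals, but the markers differed. By share, miR-148a, miR-200b and miR-200c were called higher in library 2. They were among the 27 of 108 miRNAs with a mean of at least 100 UMIs that were called higher (25%). MiR-200a, miR-141, miR-429, miR-205 and miR-375 were not called. The part of these cell types in the levels of the members was not tested.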

How the data were processed

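Small RNA of BM-EVs was sequenced in 3 libraries, grouped and numbered by the sample labels. The authors built QIAseq miRNA libraries from 100 ng of RNA, trimmed adapters, removed low-quality reads and mapped to miRBase first and Rfam second. FastQC, cutadapt 2.7 and Bowtie 1.2.2 stand in the submitters' processing notes. Raw UMI counts were deposited by the authors for each mature miRNA and each Rfam sequence (1013392, 1937450 and 863833 Rfam UMIs), without normalization and with no entry under 11 UMIs. The sources used here do not give the genome build, database versions, mismatches, use of strand or handling of multiple matches.

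Shares were taken of the summed miRNA UMIs, and an unlisted miRNA was entered as 0 in sums and at 10 UMIs in bounds. The members and lists were chosen with earlier results of these data known. The text names the members, other miRNAs of their clusters and seeds, the 3 miRNAs most like miR-92a, miR-25 and miR-93, and 4 other clusters. All 18 miRNA gene symbols looked up had a RefSeq entry. No test between groups was possible. The call of library 2 was tested on simulated counts that held counting error and set changes only. They had no other variation between libraries and no shift with abundance, so that test does not show how the calls behave in these data. TMM factors of edgeR 4.0.16 and size factors of DESeq2 1.42.0 were other scalings. Other denominators, minimums, pooling and leaving out each library were tried as well. R 4.3.3, Python 3.11.15, scipy 1.17.1, pandas 2.3.3, numpy 2.4.6 and matplotlib 3.10.9 were used.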

Additional observations from a re-analysis of the deposited data

How the results depend on the processing

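No paired analysis was possible because there was only 1 group. Of all miRNA and Rfam UMIs, the members held 0.140%, since the denominator is larger. With unlisted members at 10 UMIs, the miR-92 family held 82.2% of the members' UMIs. Without miR-92a and miR-19b, which 2 loci can give, the miR-106b/25 cluster held 80.3% of the remaining UMIs in place of 26.98%, and the miR-17/92 cluster 9.16% in place of 69.5%. At least 30 UMIs in every library left 4 members and 188 miRNAs, at least 100 UMIs left 2 and 58, and a listing in any 1 library left 745 miRNAs. With 99% intervals, a setting chosen after seeing the data, 0 members were higher and 0 lower in library 2, and with TMM totals, also chosen later, 3 were higher and 0 lower. The log2 level of miR-92b in library 2 against library 1, -0.97 by share, was 0.30 with TMM, 0.37 with DESeq2 and 0.22 over all miRNA and Rfam UMIs. Against library 3, -0.87 by share, it was 0.35 with TMM and 0.28 with DESeq2, but stayed negative, at -0.26, over all miRNA and Rfam UMIs. Its log2 ratio of library 2 to library 1 over the median, 0.42, became -1.06 against the median of miRNAs with a mean of at least 100 UMIs, a setting chosen after seeing the data, and that of miR-92a went from 1.78 to 0.31. For the leukocyte list, the log2 level in library 2 was -0.39 against library 1 and -0.84 against library 3 by share, and 0.88 and 0.39 with TMM, also chosen later. Of the remaining values for single members, ratios and marker lists, counting those over the median and the -0.26 above, 96 stayed and 50 moved, none of the 50 by pooling or by leaving out a library, which cannot move a mean of 3 by 1 SD. Both members of each ratio were listed in every library, so the restriction to such libraries changed nothing. Counts near 11 UMIs limit what can be said of miR-17-5p, miR-19b and miR-20a.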
